A study of Mus musculus with 12 samples.

Results

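The AP-1 and early growth response genes described here are Fos, Fosb, Fosl2, Jun, Junb, Jund, Jdp2, Atf3, Egr1 and Egr2, 10 of the 41255 genes in the mRNA table. They were listed by family, with earlier results of these data known. The mRNA table holds all 10, and the table of ribosome-protected fragments (RPF, the footprints of translating ribosomes), with 10080 genes, holds 9 of them and not Atf3. Each gene in the RPF table had at least 1 read in every RPF library, so RPF counts and shares cover such genes only. The 10 are 3 FOS family, 3 JUN family, 2 JDP and ATF family and 2 EGR family genes.

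Ba/F3, a mouse lymphoid line that needs IL-3 and is described as pro-B, was used to compare the leukemia-associated R98S form of the ribosomal protein RPL10 with its WT form. In both genotypes human RPL10 came from a retrovirus, endogenous Rpl10 was knocked down by an shRNA, and each culture grew from a single-cell colony, so each library stands for 1 clone. There were 3 clones per genotype, each with 1 mRNA and 1 RPF library, 12 libraries in all, and every culture, those for mRNA included, had cycloheximide at 100 µg/ml for 5 min before harvest. Values are given in the order of clones 11, 13 and 35 for R98S and of clones 28, 29 and 36 for WT. Read totals ran from 20576796 to 22178094 for R98S mRNA, 6617457 to 23136595 for WT mRNA, where clone 28 was the shallow one, 3477723 to 10883086 for R98S RPF and 4611390 to 7162305 for WT RPF.

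AP-1 is a family of basic leucine zipper dimers in which FOS proteins pair with JUN proteins, or JUN proteins with each other, to bind DNA. Fos, Junb, Egr1 and Egr2 are classical immediate early genes, switched on quickly by growth factors and cytokines through MAP kinases and the serum response factor, and their mRNAs are short-lived. Jund is made more steadily, JDP2 mainly represses AP-1 sites, and the EGR proteins are zinc finger factors.

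RefSeq promoters are shown for Fos, Junb and Egr2, which were called lower in R98S cells in at least 1 assay, and for Jdp2, the neighbour of Fos. The table held 15 start windows for 9 of the 10 genes, and the 250 bases before each start were searched on both strands for TGANTCA (the AP-1 site), TGACGTCA (the CRE) and the CArG box, which the serum response factor binds. Each motif reads the same on both strands. None of these windows held the AP-1 site or the CRE, which 6.75% and 1.55% of all 32851 windows held, and 4 of the 5 Egr2 windows held a CArG box, as 1.47% of all windows did. A match describes letters only, and no match says only that they are not in this window. The windows shown overlap no annotated exon. They lie in build GRCm38.p6 at chr12:85473640-85473889 (plus strand) for Fos, chr8:84978749-84978998 (minus strand) for Junb, chr10:67537316-67537565 (plus strand), inside the longer Egr2 transcripts, for Egr2, and chr12:85599768-85600017 (plus strand) for Jdp2. The Jdp2 window also lies inside its annotated gene, which spans chr12:85599027-85639878. Capitals mark the CArG box, which begins 72 bases before the Egr2 start.
Fos: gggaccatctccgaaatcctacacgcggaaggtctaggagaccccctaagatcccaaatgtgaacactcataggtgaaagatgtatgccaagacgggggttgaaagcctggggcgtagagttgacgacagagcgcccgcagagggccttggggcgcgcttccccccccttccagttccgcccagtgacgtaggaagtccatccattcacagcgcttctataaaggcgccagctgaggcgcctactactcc
Junb: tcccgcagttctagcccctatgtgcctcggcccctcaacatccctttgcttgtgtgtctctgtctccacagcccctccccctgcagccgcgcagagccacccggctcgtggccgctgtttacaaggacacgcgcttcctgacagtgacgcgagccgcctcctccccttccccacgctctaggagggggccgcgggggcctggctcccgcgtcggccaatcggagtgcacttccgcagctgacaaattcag
Egr2: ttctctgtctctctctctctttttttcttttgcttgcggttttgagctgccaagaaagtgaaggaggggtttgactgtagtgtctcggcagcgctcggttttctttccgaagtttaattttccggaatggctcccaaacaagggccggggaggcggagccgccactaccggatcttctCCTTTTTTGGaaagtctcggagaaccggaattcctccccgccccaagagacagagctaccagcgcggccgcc
Jdp2: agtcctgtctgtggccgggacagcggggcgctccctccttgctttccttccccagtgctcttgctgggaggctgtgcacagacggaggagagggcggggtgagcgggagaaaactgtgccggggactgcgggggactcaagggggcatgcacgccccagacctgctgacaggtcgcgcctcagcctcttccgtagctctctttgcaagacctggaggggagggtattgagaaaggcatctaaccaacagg

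In R98S cells Junb was lower in both assays, Egr2 was lower in both, Fos was lower in RPF and Jun was higher in mRNA. Values are normalized counts, gene counts that the authors divided by a size factor per library. Genes with a mean of at least 10 over the 6 libraries of an assay were tested by limma on log2(value + 1), R98S against WT, and called at a Benjamini-Hochberg adjusted p under 0.1. For mRNA 9 of the 10 genes were tested. Those called lower were 2 (Junb, Egr2), against 3.91% of the 11344 genes tested, and 1 (Jun) was called higher, against 3.03%. For RPF 8 were tested, 3 (Fos, Junb, Egr2) were called lower, against 4.62% of 9580, and 0 by limma were called higher, against 3.13%. The genotypes did not overlap for 3 genes in mRNA (Jun, Junb, Jdp2), against 23.5% of genes tested, and for 4 in RPF (Fosb, Junb, Jdp2, Egr2), against 25.3%. Of these, Fosb RPF, with means of 18.4 in R98S and 6.75 in WT clones, passed the minimum of 10 only through the R98S clones. In bulk cultures, fewer cells with a transcript and less of it per cell cannot be told apart.

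**Figure D1:**
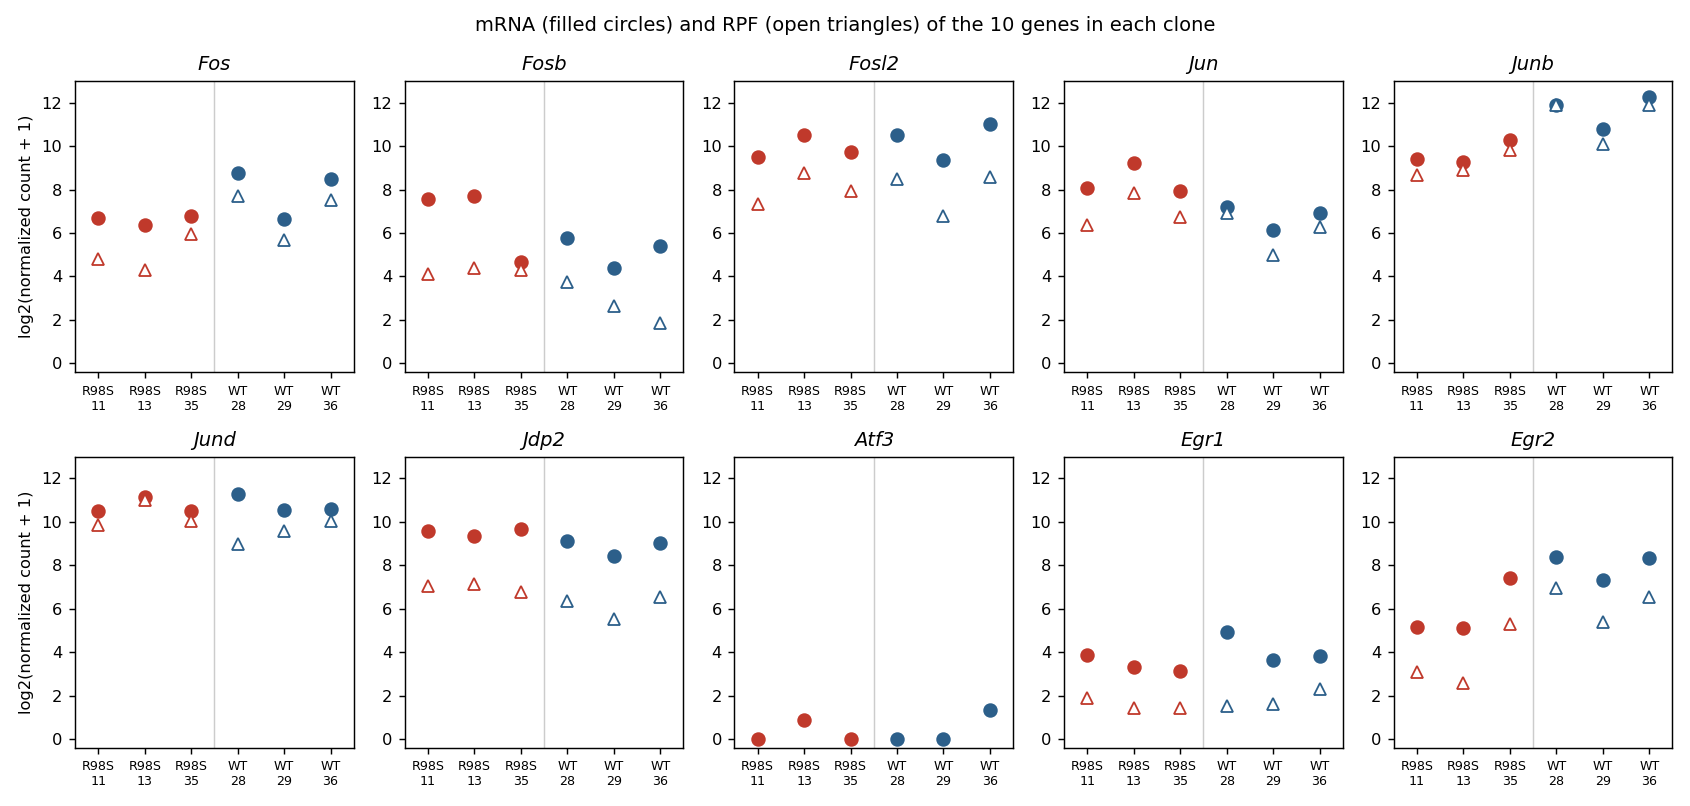
Normalized counts of the 10 genes on a log2(value + 1) axis, 1 point per clone, by genotype and assay. Junb lies lower in all 3 R98S clones than in any WT clone in both assays, and Jun mRNA lies higher.

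Fos, the founding gene of its family, lies at chr12:85473890-85477273. Its mRNA stood at 102, 81.9 and 111 in the R98S clones and 429.7, 99.0 and 364 in the WT clones. WT clones 28 and 36 were high, and WT clone 29 lay within the R98S range. The difference of −1.34 (SE 0.49, limma adjusted p = 0.18) was not called, and without WT clone 29 it was −2.01 with a limma adjusted p of 0.00771. DESeq2 called it too (adjusted p = 0.00872), as did limma with library weights (0.02; from 0.00872 to 0.259 over the other settings). Fos RPF read 27.1, 18.4 and 60.5 in the R98S clones and 208, 51.0 and 182 in the WT clones. WT clone 29, the low WT clone, lay under R98S clone 35, so the genotypes overlapped. RPF averaged 35.3 ± 22.2 against 147 ± 84.2 (SD, n = 3 each), a called log2 fold change of −1.96 (SE 0.54, limma adjusted p = 0.0735). With single clones left out the call ended in 4 of 6 limma fits, at adjusted p-values of 0.205 without R98S clone 11, 0.273 without R98S clone 13, 0.211 without WT clone 28 and 0.21 without WT clone 36, and held in 2 (0.0302 without R98S clone 35 and 0.0181 without WT clone 29). Over these fits the log2 fold change ran from −2.6 (without WT clone 29) to −1.596 (without WT clone 28), and the call's adjusted p also depended on the setting. With no trend it was 0.122 by limma (from 0.000536 to 0.122 over the other settings).

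Fosb, a close relative of Fos, showed mRNA of 187, 205 and 24.1 in the R98S clones and 53.7, 19.8 and 41.5 in the WT clones. R98S clones 11 and 13 were far above the rest, and R98S clone 35 lay among the WT clones. The log2 fold change of 1.44 (SE 0.75, limma adjusted p = 0.361) was not called, whereas without R98S clone 35 it was 2.43 (limma adjusted p = 0.0297). Library weights (0.0385) and DESeq2 (0.0419) also called it (adjusted p from 0.0385 to 0.458 over the other settings). Fosb RPF, from 2 to 31 reads a library, was 16.5, 20.1 and 18.5 in the R98S clones and 12.4, 5.21 and 2.64 in the WT clones. Here the genotypes did not overlap, and R98S clone 35 was level with the other R98S clones. Its RPF difference, 1.52 (SE 0.55, limma adjusted p = 0.148), was not called. It was called by limma without WT clone 28 (adjusted p = 0.0996), with no trend (0.0998) and with library weights (0.0342), from 0.0342 to 0.239 over the other settings.

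Fosl2, which encodes FRA2, had mRNA of 729.5, 1449 and 862 in the R98S clones and 1469, 649 and 2084 in the WT clones. Its RPF values were 162, 432 and 240.1 in the R98S clones and 360.1, 109 and 377 in the WT clones. The genotypes overlapped in both assays, and WT clone 29 was the lowest of the 6 clones in each. Neither mRNA, at −0.37 (SE 0.41, limma adjusted p = 0.685), nor RPF, at 0.059 (SE 0.47, limma adjusted p = 0.956), was called.

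Jun, the prototype of its family at chr4:95049034-95052222, had mRNA of 272, 589.7 and 244 in the R98S clones and 148, 70.1 and 121 in the WT clones. All 3 R98S clones lay above all 3 WT clones, R98S clone 13 by most. Mean mRNA was 3.26-fold higher in R98S cells, a log2 fold change of 1.64 (SE 0.39, limma adjusted p = 0.0512). Leaving out 1 clone ended the call in 4 of 6 limma fits, with adjusted p-values of 0.101 without R98S clone 11, 0.189 without R98S clone 13, 0.12 without WT clone 29 and 0.128 without WT clone 36, and it held in 2 (0.0583 without R98S clone 35 and 0.0373 without WT clone 28). After removal of each library's chromosome medians the log2 fold change was 1.47, with a limma adjusted p of 0.103 (range over the other settings 0.000576 to 0.103). Jun lies on chromosome 4, whose genes had a median log2 deviation from the 6-clone mean of 0.092, 0.040 and 0.13 in the R98S clones and −0.14, −0.087 and −0.035 in the WT clones. Jun RPF was 80.8, 225 and 107 in the R98S clones and 122, 31.2 and 77.7 in the WT clones. Unlike mRNA it overlapped, with WT clone 28 above R98S clones 11 and 35, and its difference of 0.89 (SE 0.49, limma adjusted p = 0.334) was not called. The antisense gene Junos, which shares 689 bases with Jun, had at most 0.825 normalized counts in any mRNA library.

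Junb, at chr8:84974484-84978718, encodes a JUN protein that can restrain JUN. Its mRNA stood at 688, 626 and 1227 in the R98S clones and 3811, 1766 and 4862 in the WT clones. Every R98S clone lay below every WT clone, R98S clone 35 and WT clone 29 being closest to the other genotype. Mean mRNA was 4.11-fold higher in WT cells, a log2 fold change of −1.98 (SE 0.38, limma adjusted p = 0.0202). Leaving out each clone in turn kept the call, with limma adjusted p-values of 0.00397 to 0.0952. Genes of chromosome 8, where Junb lies, had a median mRNA log2 deviation of −0.13, −0.038 and −0.13 in the R98S clones. It was 0.11 in each WT clone. With chromosome medians removed the Junb log2 fold change was −1.77, with a limma adjusted p of 0.0463. Over the other settings the adjusted p ran from 7.65e-07 (DESeq2) to 0.0645 (limma with no trend).
Junb RPF was 401, 484 and 892 in the R98S clones and 3834, 1100.5 and 3809.6 in the WT clones. The genotypes again did not overlap. RPF was called lower at −2.18 (SE 0.45, limma adjusted p = 0.0257), and the limma adjusted p was 0.115 without R98S clone 13. With chromosome medians removed it was −1.98 (limma adjusted p = 0.0458). The annotated 3′ end of Junb shares 351 bases with Prdx2 on the opposite strand, and strand use in counting was not stated. Prdx2 mRNA was 1172, 956 and 1474 in the R98S clones and 2565, 2055 and 2033 in the WT clones, also lower in each R98S clone than in each WT clone. The part of Prdx2 reads in the Junb counts was not tested.

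Jund had mRNA of 1470.2, 2239 and 1432 in the R98S clones and 2529.6, 1486 and 1561 in the WT clones. R98S clone 13 and WT clone 28 were high, and the others lay close together. Its mRNA difference was −0.11 (SE 0.26, limma adjusted p = 0.879) and its sign turned under several settings. Jund RPF was 934, 2053 and 1066 in the R98S clones and 509, 763 and 1041 in the WT clones. WT clone 28, highest for mRNA, was lowest for RPF, and WT clone 36 lay within the R98S range. That RPF difference, 0.78 (SE 0.32, limma adjusted p = 0.201), was not called, and DESeq2 called it (adjusted p = 0.0898, from 0.0898 to 0.285 over the other settings).

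Shares of the JUN family's summed level, per kilobase of merged exon length for mRNA, are given as a description with no test. Junb made up 25.0% ± 10.7 of the family's mRNA in R98S clones and 55.2% ± 11.8 in WT clones (SD, n = 3 each). Jun made up 7.41% ± 2.60 against 1.33% ± 0.104, and Jund 67.6% ± 8.26 against 43.5% ± 11.8. A share depends on the other genes of the family, and Jund mRNA itself was not called (−0.11). In RPF per kilobase of coding length, Junb made up 29.5% ± 12.8 against 73.6% ± 14.3. None of the Jun or Junb shares overlapped between genotypes in either assay. The ratio of Junb to Jun per kilobase was 3.50, 1.47 and 6.96 in the R98S clones and 35.8, 34.9 and 55.5 in the WT clones for mRNA. For RPF it was 4.82, 2.09 and 8.06 in the R98S clones and 30.4, 34.2 and 47.6 in the WT clones. Every WT ratio lay above every R98S ratio. This ratio, chosen after its values were seen, carries no test either.

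**Figure D2:**
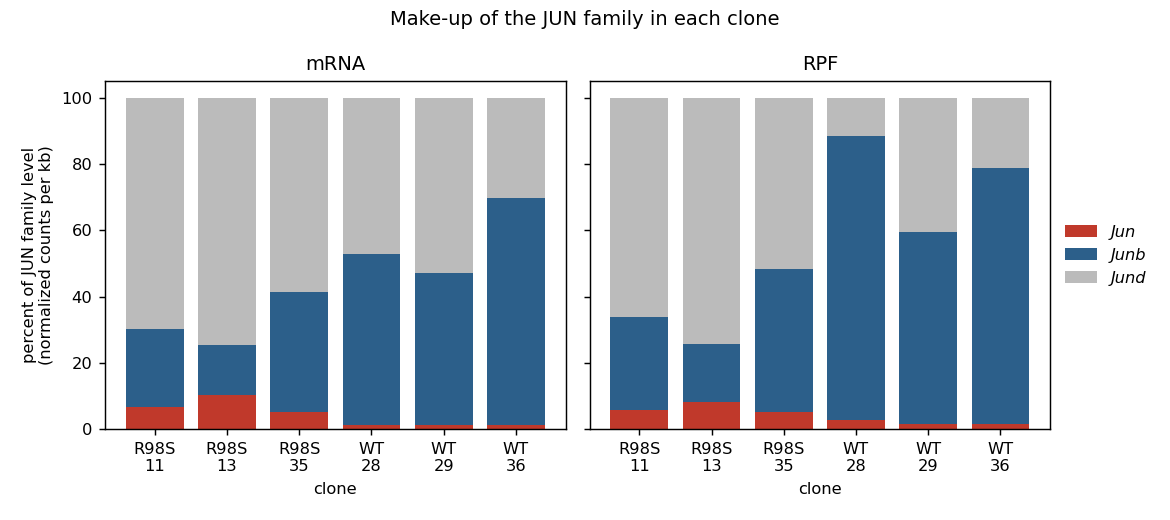
Share of each JUN family gene in the family's summed normalized counts per kilobase, in percent, 1 bar per clone, for mRNA and RPF. Junb holds 45.7% to 68.4% of the mRNA in WT clones and 15.1% to 36.3% in R98S clones.

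Jdp2 lies 125 kb from the Fos start on the same strand. Its mRNA was 770.0, 646 and 822 in the R98S clones and 559, 345 and 528 in the WT clones. Its RPF was 129, 141 and 109 in the R98S clones and 82.2, 44.8 and 93.6 in the WT clones. Every R98S clone lay above every WT clone in both assays. Neither mRNA, at 0.67 (SE 0.23, limma adjusted p = 0.157), nor RPF, at 0.83 (SE 0.30, limma adjusted p = 0.146), was called, and leaving out WT clone 28 gave 0.0885 by limma for mRNA. DESeq2 (0.091) and library weights (0.0389) also called the mRNA (adjusted p from 0.0389 to 0.218 over the other settings). Atf3, a stress-induced factor, had 1 read in R98S clone 13, 2 in WT clone 36 and 0 in the other mRNA libraries, and was not tested.

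Within 500 kb of the Fos start lie the starts of 17 protein-coding genes. For mRNA 13 of them were tested and limma called 0 (against 3.03% higher and 3.91% lower of all genes tested). For RPF 11 were tested and Fos alone was called, lower (against 3.13% higher and 4.62% lower). Their mRNA log2 fold changes ran from −1.34 (Fos) to 0.67 (Jdp2). Batf, which encodes an AP-1 partner, had a mean mRNA of 415 in R98S and 360.1 in WT clones. Fos and Jdp2 thus had the lowest and the highest of these values.

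Egr1 was near the limit of detection, with mRNA of 13.5, 9.01 and 7.74 in the R98S clones and 29.5, 11.5 and 13.3 in the WT clones. These were 9 to 17 reads a library, and WT clone 28, where 1 read is worth 2.69 normalized counts, was highest. The genotypes overlapped, and the difference of −0.70 (SE 0.53, limma adjusted p = 0.541) was not called. Its RPF was 2.66, 1.68 and 1.68 in the R98S clones and 1.91, 2.08 and 3.95 in the WT clones. At 1 to 5 reads a library it was outside the fit across genes, and no difference was detectable at this depth (exact permutation p = 0.5, two-sided, where 0.1 is the smallest possible).

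Egr2, at chr10:67535475-67542188, had mRNA of 34.9, 33.6 and 172 in the R98S clones and 333, 158 and 321 in the WT clones. R98S clone 35 lay above WT clone 29, and the other R98S clones lay far below every WT clone. The log2 fold change of −2.11 (SE 0.59, limma adjusted p = 0.0904) was called. It ended in 4 of the 6 limma fits that left out 1 clone (0.282 without R98S clone 11, 0.312 without R98S clone 13, 0.145 without WT clone 28 and 0.249 without WT clone 36) and held in 2 (0.0082 without R98S clone 35 and 0.0875 without WT clone 29). In these fits the log2 fold change ran from −2.87 (without R98S clone 35) to −1.71 (without R98S clone 13). The adjusted p was 0.16 by limma with no trend, 0.115 with chromosome medians removed (log2 fold change −2.02) and 0.162 by edgeR (range over the other settings 0.00362 to 0.162).
Egr2 RPF was 7.45, 5.03 and 38.6 in the R98S clones and 121, 40.6 and 90.9 in the WT clones. In reads these were 14, 6 and 23 in the R98S clones and 127, 39 and 69 in the WT clones. The genotypes did not overlap, with R98S clone 35 just under WT clone 29. RPF was called lower at −2.62 (SE 0.65, limma adjusted p = 0.0528), and the call ended in 4 of the 6 limma fits without 1 clone (0.172 without R98S clone 11, 0.203 without R98S clone 13, 0.158 without WT clone 28 and 0.15 without WT clone 36) and held in 2 (0.00462 without R98S clone 35 and 0.0484 without WT clone 29). The RPF log2 fold change ran from −3.444 (without R98S clone 35) to −2.085 (without R98S clone 13).

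**Figure D3:**
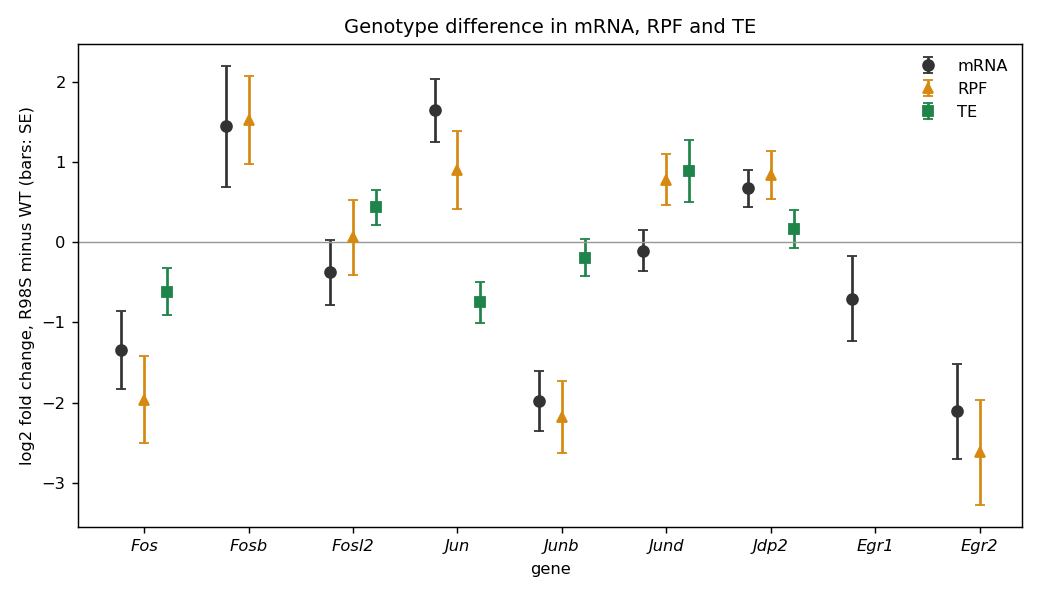
Log2 fold changes, R98S minus WT, with standard errors, for each tested gene in mRNA (circles), RPF (triangles) and translational efficiency (squares), from 3 against 3 clones. Fos, Junb and Egr2 lie below 0 and Fosb, Jun and Jdp2 above 0 in mRNA and RPF.

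Translational efficiency (TE) was log2(RPF + 1) minus log2(mRNA + 1) within a clone, for genes with a value of 10 or more in each of the 12 libraries. Of the 10 genes 6 were tested and limma called 0, against 0.0221% of 9043 genes, as edgeR and DESeq2 did. At an unadjusted limma p under 0.05 there were 2 (Jun, Jund), against 7.85% of genes tested. The genotypes did not overlap for 1 (Jun), against 14.8%. Jun RPF over mRNA was 0.297, 0.382 and 0.440 in the R98S clones and 0.828, 0.446 and 0.640 in the WT clones. R98S clone 35 lay just under WT clone 29. The Jun TE difference was −0.75 (SE 0.25, limma adjusted p = 0.629). Jund RPF over mRNA was 0.635, 0.917 and 0.745 in the R98S clones and 0.201, 0.513 and 0.667 in the WT clones. WT clone 28 was far the lowest, and WT clone 36 lay above R98S clone 11. Its TE difference of 0.88 (SE 0.39, limma adjusted p = 0.629) was not called. Fos RPF over mRNA was 0.265, 0.225 and 0.545 in the R98S clones and 0.485, 0.515 and 0.5 in the WT clones. It was near uniform in WT clones and lower in R98S clones 11 and 13, with a TE difference of −0.62 (SE 0.29, limma adjusted p = 0.635). Fosl2 TE differed by 0.43 (SE 0.22, limma adjusted p = 0.635). With library weights, which called 8.80% of all genes, Fos (−0.83, adjusted p = 0.0521) and Fosl2 (0.58, 0.07) were called.

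Egr2, outside the TE test, had RPF over mRNA of 0.213, 0.150 and 0.225 in the R98S clones and 0.364, 0.256 and 0.283 in the WT clones. These did not overlap (exact permutation p = 0.1, two-sided, the smallest possible with 3 against 3). The R98S ratios rest on 14, 6 and 23 RPF reads.

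Mean mRNA per kilobase in R98S clones ran, from the highest, Jund (1027 ± 273), Junb (368 ± 144), Jdp2 (347 ± 42.0), Jun (116 ± 60.2), Fosl2 (105 ± 39.5), then Fos (41.8 ± 6.34), Egr2 (23.6 ± 23.4), Fosb (22.2 ± 16.0), Egr1 (2.25 ± 0.675) and Atf3 (SD, n = 3). In WT clones it ran Junb (1512 ± 684), Jund (1114 ± 349), Jdp2 (222 ± 53.8), Fosl2 (145 ± 74.4), Fos (126 ± 74.4), then Egr2 (79.7 ± 28.7), Jun (35.5 ± 12.4), Fosb (6.14 ± 2.75), Egr1 (4.04 ± 2.21) and Atf3. Neighbours that overlapped were Junb and Jdp2, Jun and Fosl2, Fos and Egr2, and Egr2 and Fosb in R98S clones. In WT clones they were Junb and Jund, Jdp2 and Fosl2, Fosl2 and Fos, Fos and Egr2, and Fosb and Egr1.

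Clones of 1 genotype also differed. WT clone 29 had the lowest mRNA of the 6 clones for 4 of the 10 genes, and WT clones 28 and 36 had the highest for 4 and 3. WT clone 29 differed from WT clone 28 by −2.11 for Fos, −1.11 for Junb and −1.07 for Egr2 on the log2 scale. R98S clone 35 differed from R98S clone 11 by 0.83 for Junb, 2.27 for Egr2 and −2.91 for Fosb.

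The 3 tested genes most like each gene over the 6 mRNA libraries are given by Pearson r of log2 values, as a description. They have the highest r among the 11344 tested genes, so a high r and a like clone pattern follow from the choice. Fos was most like Vasp (0.994), Tsta3 (0.993) and Arf6 (0.987), Fosb like Leng9 (0.997), Cops7b (0.995) and Tmppe (0.992), and Fosl2 like Actr2 (0.990), Ikzf4 (0.968) and Rwdd4a (0.967). Jun was most like Ogfr (0.995), Nudt5 (0.989) and AI182371 (0.989), Junb like Gnb1 (0.996), Fam118a (0.995) and Dr1 (0.992), and Jund like Mga (0.992), Timm22 (0.989) and Krt10 (0.985). Jdp2 was most like Max (0.997), Hist1h1c (0.991) and Eif2b5 (0.991), where MAX is the partner of MYC. Egr1 was most like Gm14005 (0.997), Ampd2 (0.993) and Zfp523 (0.988), and Egr2 like Nus1 (0.998), Pim1 (0.994) and Slc39a6 (0.990). Pim1, a kinase gene induced by cytokines, stood at 6634, 6262 and 12121 in the R98S clones and 18650.0, 12251 and 16549.7 in the WT clones, with R98S clone 35 close to WT clone 29 as for Egr2. This likeness to Egr2 follows from the choice by r.

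Related genes are described by counts and medians of the log2 fold change, whose medians over all tested genes were 0.013 for mRNA and 0.014 for RPF. The lists here and below were chosen with earlier results of these data known. A count above the share over all genes is therefore a description and no test of a list. Of 16 other AP-1 and bZIP partners, 12 were tested in each assay, with medians of −0.089 and −0.0045. Among them limma called 0 (against 6.94% of all genes tested for mRNA and 7.76% for RPF). Nfe2, the most abundant, had mRNA of 4237, 3408 and 2428 in the R98S clones and 3574, 6254 and 3113 in the WT clones (−0.33, SE 0.29, limma adjusted p = 0.605). The genotypes overlapped. Of the partners, library weights called 4 for mRNA (against 26.1% of all genes) and 3 for RPF (against 18.8%), and DESeq2 1 and 1 (against 11.3% and 11.4%). Of 5 EGR relatives and co-repressors 3 were tested for mRNA and 2 for RPF, with medians of −0.056 and 0.50. Of these 0 were called by limma (against 6.94% and 7.76% of all genes tested). Nab1, a co-repressor of EGR factors and the most abundant, had an mRNA difference of −0.056. Egr3, another EGR family gene, had mRNA of 10.3, 4.91 and 12.04 in the R98S clones and 26.9, 23.9 and 35.3 in the WT clones (−1.62, SE 0.49, limma adjusted p = 0.108). Every R98S clone lay below every WT clone, and Egr3 is named after its values were seen. Its means were 9.09 in R98S and 28.7 in WT clones, so it passed the minimum of 10 only through the WT clones. For mRNA 1 gene of this list was called at a pseudocount of 5, with no trend, with library weights, with quantile normalization, with chromosome medians removed and by edgeR, settings that called 5.50% to 26.1% of all genes. With library weights 1 was called for RPF.

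Of 30 other immediate early genes, 21 were tested in each assay. Those called lower by limma were 6 for mRNA (against 3.91% of all genes tested) and 7 for RPF (against 4.62%). In both assays 0 were called higher by limma (against 3.03% and 3.13%). With no trend 2 were called for mRNA (against 5.50% of all genes), and with library weights 12 for mRNA (against 26.1%) and 13 for RPF (against 18.8%). The medians were −0.64 and −0.38. By clone, the list's median log2 deviation from the 6-clone mean for mRNA was −0.36, −0.39 and −0.16 in the R98S clones and 0.48, −0.14 and 0.35 in the WT clones. WT clone 29 lay next to R98S clone 35, as it did for RPF. Ier2 mRNA stood at 1015, 788 and 1856 in the R98S clones and 5199, 2474 and 4239.5 in the WT clones (−1.73, SE 0.35, limma adjusted p = 0.0257). As for Junb, the genotypes did not overlap. Called lower for mRNA without overlap were also Btg1 (−1.60), Ier3 (−1.57), Myc (−1.18) and Rgs2 (−1.14), and with overlap Csrnp1 (−1.79). For RPF they were Ier2 (−1.87), Myc (−1.54), Btg1 (−1.49), Rgs2 (−1.17), Klf10 (−0.99) and Mcl1 (−0.67), and Ier3 with overlap (−1.48). For Csrnp1 mRNA (limma adjusted p = 0.0951) and Ier3 RPF (0.0534), fits without 1 clone are not given here. The mRNA call of Btg1 held in all 6 limma fits that left out 1 clone. mRNA calls ended, by limma adjusted p when 1 clone was left out, for Ier2 in 2 (up to 0.109, without R98S clone 13), Ier3 in 4 (up to 0.276, without R98S clone 13), Myc in 4 (up to 0.254, without R98S clone 13) and Rgs2 in 6 (up to 0.215, without WT clone 29) of the 6 fits. The RPF call of Ier2 held in all 6 limma fits that left out 1 clone. RPF calls ended, by limma adjusted p when 1 clone was left out, for Myc in 3 (up to 0.177, without R98S clone 13), Btg1 in 2 (up to 0.158, without R98S clone 13), Rgs2 in 3 (up to 0.132, without R98S clone 13), Klf10 in 2 (up to 0.119, without R98S clone 13) and Mcl1 in 4 (up to 0.308, without R98S clone 13) of the 6 fits. Other settings ended the mRNA call of Ier3 (0.155 with no trend, within 0.00366 to 0.155), Myc (0.145 with no trend, 0.109 by edgeR, within 0.00225 to 0.145) and Rgs2 (0.164 with no trend, 0.1 with library weights, within 0.0114 to 0.164). Other settings ended the RPF call of Mcl1 (0.162 with no trend, 0.131 with quantile normalization, 0.377 with chromosome medians removed, within 0.0125 to 0.377). Zfp36l2, the most abundant, had −0.67 for mRNA (limma adjusted p = 0.17).

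Of the MAP kinase cascade, 19 of 21 genes were tested in each assay. For mRNA limma called 0 (against 6.94% of all genes tested, median −0.042). For RPF limma called 1, Mapk13, higher (0.68, SE 0.20, limma adjusted p = 0.0852), against 3.13% of all genes tested, with a list median of 0.20. Library weights called 1 for mRNA and 3 for RPF (against 26.1% and 18.8%). RPF calls ended, by limma adjusted p when 1 clone was left out, for Mapk13 in 5 (up to 0.283, without R98S clone 11) of the 6 fits. Of 14 feedback genes, phosphatases and inhibitors of the pathway, 12 were tested, with 5 called lower for mRNA (against 3.91% of all genes tested), 3 for RPF (against 4.62%) and medians of −0.91 and −0.68. Dusp6, a MAP kinase phosphatase, had mRNA of 812, 595 and 1249 in the R98S clones and 3163, 2874 and 3135 in the WT clones (−1.85, SE 0.25, limma adjusted p = 0.004). All R98S clones lay below all WT clones. The others for mRNA were Dusp4 (−1.95), Dusp5 (−1.89), Dusp7 (−1.33) and Spred1 (−0.79), and for RPF Dusp6 (−2.20), Dusp4 (−2.00) and Dusp5 (−1.54). The mRNA call of Dusp6, Dusp4 and Dusp7 held in all 6 limma fits that left out 1 clone. mRNA calls ended, by limma adjusted p when 1 clone was left out, for Dusp5 in 3 (up to 0.147, without WT clone 36) and Spred1 in 4 (up to 0.281, without R98S clone 13) of the 6 fits. The RPF call of Dusp6 and Dusp4 held in all 6 limma fits that left out 1 clone. RPF calls ended, by limma adjusted p when 1 clone was left out, for Dusp5 in 1 (up to 0.102, without WT clone 36) of the 6 fits. Other settings ended the mRNA call of Spred1 (0.149 with no trend, within 0.00203 to 0.149). Library weights called 9 of the feedback genes for mRNA (against 26.1% of all genes) and 6 for RPF (against 18.8%), and DESeq2 5 for RPF (against 11.4%). All 6 genes of the serum response factor and its cofactors were tested, and 1, Elk3, was called lower in mRNA (−1.28, against 3.91% of all genes tested) and RPF (−1.54, against 4.62%), with list medians of −0.35 and −0.10. mRNA calls ended, by limma adjusted p when 1 clone was left out, for Elk3 in 3 (up to 0.2, without R98S clone 13) of the 6 fits. Other settings ended the mRNA call of Elk3 (0.113 with no trend, within 0.000526 to 0.113). With library weights 4 of the 6 were called for mRNA (against 26.1% of all genes). Srf, the most abundant in mRNA, had −0.53 there and Mkl1, the most abundant in RPF, 0.22.

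Of 16 known AP-1 target genes, 13 were tested for mRNA with 6 called lower (against 3.91% of all genes tested), and 12 for RPF with 8 called lower (against 4.62%), at medians of −1.31 and −1.38. As this list was chosen with earlier results of these data known, the counts are a description and no test of AP-1 activity. Spp1, which encodes osteopontin, was the most abundant, with mRNA of 109, 195 and 675 in the R98S clones and 38952, 7419.8 and 17821 in the WT clones (−6.15, SE 0.69, limma adjusted p = 0.0014). Every R98S clone was far below every WT clone. The others for mRNA were Mmp9 (−1.86), Mt2 (−1.59), Vim (−1.33), Mt1 (−1.31) and Lmna (−1.01), and RPF called these, Spp1, Plaur (−1.32) and Ezr (−0.95). The mRNA call of Spp1, Mt2 and Mt1 held in all 6 limma fits that left out 1 clone. mRNA calls ended, by limma adjusted p when 1 clone was left out, for Mmp9 in 3 (up to 0.152, without WT clone 36), Vim in 2 (up to 0.148, without WT clone 36) and Lmna in 3 (up to 0.189, without R98S clone 13) of the 6 fits. The RPF call of Spp1, Mmp9, Vim, Mt2, Mt1 and Lmna held in all 6 limma fits that left out 1 clone. For the RPF of Plaur (limma adjusted p = 0.0758) and Ezr (0.0642), fits without 1 clone are not given here. Other settings ended the mRNA call of Vim (0.112 with no trend, within 0.00102 to 0.112) and Lmna (0.105 with no trend, within 0.0044 to 0.105). Library weights called 10 of these genes for mRNA (against 26.1% of all genes).

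**Figure D4:**
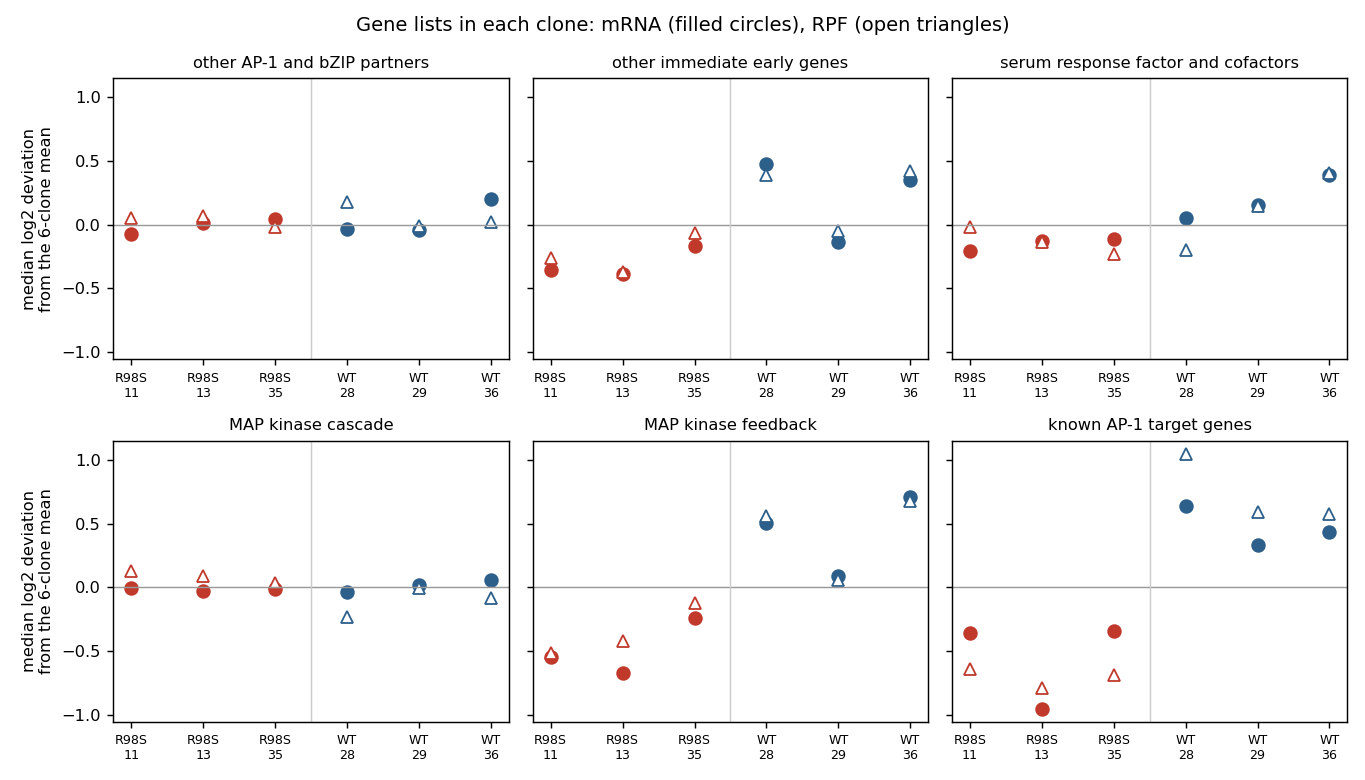
Median, over the tested genes of each list, of the log2 deviation from the 6-clone mean, 1 point per clone, by genotype and assay. For mRNA the feedback and AP-1 target lists lie below 0 in the R98S clones and above 0 in the WT clones, whereas for the other immediate early genes WT clone 29 lies below 0 next to R98S clone 35.

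Among markers of cell type, the 12 pro-B cell markers summed, in normalized mRNA counts, to 1666, 1352 and 1671 in the R98S clones and 1157, 1069 and 896 in the WT clones, led by Cd79a, with Pax5, Vpreb2, Rag1 and Il7r at 0 in all. Only 2 of them reached the minimum for testing, so several defining pro-B markers were absent, and 0 were called by limma (against 6.94% of all genes tested). The 5 IL-3 receptor and leukocyte markers summed to 121701, 100455 and 122010.0 in the R98S clones and 48042, 93846 and 64596 in the WT clones, led by Csf2rb, and Csf2rb2, an IL-3 receptor subunit, was called higher in R98S clones (0.95, SE 0.22, limma adjusted p = 0.0424). In RPF Csf2rb (1.02) and Csf2rb2 (1.08) were called higher and Ptprc, which encodes CD45, lower (−1.19, SE 0.22, limma adjusted p = 0.0157), and the Ptprc mRNA difference of −0.80 was not called. The 9 mast cell and basophil markers summed to 29452, 17671 and 24848 in the R98S clones and 27982, 24655 and 22621 in the WT clones. Gata2, called lower (−0.73), had the highest mean, while Cma1 (12235) exceeded Gata2 (11145) in R98S clone 35. Cma1, not called, was 13501, 1943 and 12235 in the R98S clones and 1324, 4111 and 640 in the WT clones. Cpa3 was called higher (3.28), and Kit and Tpsb2 were at 0. The 8 monocyte and granulocyte markers summed to 0, 1.64 and 25.8 in the R98S clones and 158, 32.2 and 62.7 in the WT clones, with Ly6c2 at 0. S100a9 had the highest mean, through WT clone 28 (96.7), while Lyz2 led in WT clones 29 (24.7) and 36 (47.0) and Mpo in R98S clone 35 (24.1). The 6 T cell markers summed to 144, 146 and 136 in the R98S clones and 69.8, 55.3 and 50.9 in the WT clones. Lck had the highest mean, while Cd3d led in R98S clone 11 (73.8) and WT clone 28 (29.5). Cd3d was called higher in RPF (2.33). Its RPF means were 55.6 in R98S and 9.47 in WT clones, so it passed the minimum of 10 only through the R98S clones. The 5 erythroid markers summed to 2012, 1505 and 2127 in the R98S clones and 1638, 3202 and 1732 in the WT clones, led by Gata1, with Hba-a1 called lower (−3.93). Hba-a1 mRNA means were 2.99 in R98S and 78.3 in WT clones, so it passed the minimum only through the WT clones, with 169 in WT clone 28. Of all genes tested, limma called 3.03% higher and 3.91% lower for mRNA, and 3.13% and 4.62% for RPF. The part of these markers in the results for Fos, Jun, Junb and Egr2 was not tested.
Rpl10 mRNA, the knockdown target in all clones, was 2905, 1449 and 2355 in the R98S clones and 4501, 2345 and 2230.2 in the WT clones (log2 fold change −0.42, SE 0.32, limma adjusted p = 0.551). The genotypes overlapped, and the human cDNA is not told apart here, so this gene does not check the labels.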

How the data were processed

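Per the labels and the study's methods, the authors aligned reads to mm10 with TopHat2 2.0.11, counted mRNA reads on exons and footprints on coding sequence away from its ends, merged 3 technical replicates of each footprint clone and divided counts by DESeq2 size factors, in 1 table per assay. The deposited values are thus a signal, normalized counts. All values (100%) came out as whole multiples of 1 read within a relative tolerance of 1e-06, so reads were recovered, and count tests on them by edgeR 4.0.16 and DESeq2 1.42.0 called 796 and 1283 genes for mRNA and 807 and 1095 for RPF. The main test, limma 3.58.1 in R 4.3.3 with trend, called 787 and 743.

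The pseudocount was 1, the minimum 10 and the threshold an adjusted p of 0.1. Both libraries of a clone carry its number in the labels, and their deviations from the genotype mean correlated across genes in each clone (r = 0.218 to 0.681, genes not being independent replicates), so TE was tested within clones. Genes outside a fit got a two-sided exact permutation test. Members and lists were chosen with earlier results of these data known. Named genes are the 10, per list up to 6 called without overlap (largest changes first) plus the most abundant (not every one is used here), 3 most alike per gene, genes near Fos, the markers and Rpl10, and further ones named to complete a small count were chosen after their values were seen. Lengths and positions came from GENCODE M21, per-kilobase RPF uses the whole coding length, and promoters came from RefSeq. The fits were also run on simulated data, whose outcome is not given here, and no result rests on it. Alternatives changed the pseudocount, minimum, trend, library weights, normalization, tool, chromosome medians, pairing and clones used.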

Additional observations from a re-analysis of the deposited data

How the results depend on the processing

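Of 861 refitted differences of the 10 genes (not Atf3) and of the list genes called without overlap (up to 6 a list), 747 kept direction and side of the threshold, 88 lost and 15 gained a call and 11 changed sign. Of the 10 genes, 3 were called for mRNA, against 6 with library weights, 6 by DESeq2, 1 with chromosome medians removed and 1 to 4 without 1 clone. For RPF 3 were called, against 4 with library weights, 4 by DESeq2 and 0 to 3 without 1 clone, the lowest without R98S clone 13. With no trend the RPF count was also 3, with Fosb, which passed the minimum only through its R98S clones, called and Fos not. For TE limma called 0, and 2 with library weights (Fos and Fosl2). Over all genes, library weights called 2959 for mRNA, 1799 for RPF and 796 for TE, DESeq2 called 1283 for mRNA and 6 for TE, and for TE a minimum of 1 called 4, quantile normalization 1 and the fit without pairing of libraries 3. Without 1 clone there were 315 to 1113 for mRNA, 229 to 1148 for RPF and 0 to 3 for TE.

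The signs that changed were of differences not called. Jund mRNA was 0.0085 with library weights and 0.11 with chromosome medians removed, and −0.31 to 0.14 without 1 clone. Fosl2 RPF was −0.28 with library weights, −0.0095 by edgeR and −0.020 by DESeq2, and −0.52 to 0.39 without 1 clone. Junb TE was 0.034 with library weights, and Jdp2 TE −0.016 to 0.34 without 1 clone. The cause was not tested. Fits without a clone have fewer samples, and low read numbers limit Egr1, Atf3, Fosb RPF and, in the R98S clones, Egr2 RPF.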
